A study of Mus musculus with 6 samples.

Results

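The aminoacyl-tRNA synthetases were followed in gastrocnemius, the large calf muscle, as the 36 genes whose symbols name them in the deposited tables, out of 35491 named entries. There were 20 cytosolic genes and 16 mitochondrial ones, whose symbols end in 2. All 36 were found once and all 36 passed the filter on low values. RNA had been sequenced in 3 Control and 3 Ogg1Tg libraries from male mice aged 20 weeks, on chow and untreated. Both groups had a C57BL/6J background. Ogg1Tg mice carry human OGG1-1a, an enzyme that removes oxidised guanine from DNA, fused to a signal that directs it to mitochondria. The transgene is under a CMV/AG promoter, so it is not restricted to muscle fibres. The labels do not say whether the Control mice were littermates. The comparison asks how the synthetase transcripts of Ogg1Tg muscle differ from those of Control muscle, enzyme by enzyme.

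Most synthetases attach 1 kind of amino acid to the tRNAs that carry it to the ribosome. Eprs joins the enzymes for glutamate and proline, and Farsa and Farsb are chains of the enzyme for phenylalanine. Cytosolic and mitochondrial translation use largely separate sets, both encoded in the nucleus, while Gars and Kars serve both compartments. Several cytosolic synthetases are held together with scaffold proteins in the multisynthetase complex, and the others act free of it. Many cytosolic synthetase genes are known targets of ATF4, the transcription factor of the amino acid and integrated stress responses, which binds the C/EBP-ATF response element.

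Depth was 45189860 to 56126407 reads in named genes per library. Values are gene reads scaled by 1 factor per library, given as mean ± SD with n = 3 per group. Fold changes come from log2(value + 1). All 10 skeletal muscle markers were above 0 in every library. Ogg1Tg replicate 3 stood apart, with a Spearman correlation across genes of 0.946 to 0.953 with the other libraries, against 0.975 to 0.983 among those. The summed level of 10 lymphocyte markers was 16420 in it and 247 to 342 in the other 5 libraries, where 4 of the 10 were at 0 in Control replicate 1. The 6 adipocyte markers summed to 6793 in it against 2442 to 3361, and the muscle markers had a median of -0.73 (log2) from the Control mean. In whole muscle, fewer cells of a type and less RNA per cell cannot be told apart.

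Promoter sequences are shown for Gars, Iars and Sars, which were called higher, and for Tars, which shares a motif with Gars. RefSeq windows on GRCm38.p6 were found for 27 of the 36 genes. They were searched over the 250 bases before the RefSeq start, on both strands, for TGATGNAA, the core of the C/EBP-ATF response element, and for CACGTG, the E-box. Up to 150 bases before each start are printed 5′ to 3′ on the gene's own strand, without bases that GENCODE M21 annotates as exon, and with matches in capitals. They lie at chr6:55037851-55038000 (plus strand), chr15:11399666-11399808 (minus), chr13:49681980-49682099 (plus) and chr3:108445260-108445409 (minus).
Gars: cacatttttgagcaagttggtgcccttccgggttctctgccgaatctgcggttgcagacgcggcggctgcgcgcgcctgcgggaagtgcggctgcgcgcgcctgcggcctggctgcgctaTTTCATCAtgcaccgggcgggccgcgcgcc
Tars: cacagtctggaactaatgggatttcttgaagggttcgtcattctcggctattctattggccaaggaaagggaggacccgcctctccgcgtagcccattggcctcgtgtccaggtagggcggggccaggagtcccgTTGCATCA
Iars: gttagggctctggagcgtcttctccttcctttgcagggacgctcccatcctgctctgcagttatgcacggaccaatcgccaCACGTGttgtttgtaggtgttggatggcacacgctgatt
Sars: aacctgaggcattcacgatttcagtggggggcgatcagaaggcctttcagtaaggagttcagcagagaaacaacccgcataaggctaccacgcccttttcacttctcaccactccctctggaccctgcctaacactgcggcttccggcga

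Gars and Tars each held the response element core close to the start on the opposite strand, so that the gene's own strand reads TTTCATCA from position -30 and TTGCATCA from position -15. Iars held an E-box from position -69, and Sars held neither motif. Not printed are Aars, with TTGCATCA from position -112 and an E-box from position -146, and Farsb, with an E-box from position -39. Asns, asparagine synthetase and a reference gene of the amino acid response, held TGATGAAA from position -23, while Atf4 held neither motif. Xpot, the tRNA exportin, held an E-box from position -231 and no core. The core was present in 3 of 13 cytosolic and 0 of 14 mitochondrial genes, against 3.91% of the 27025 genes with a window. The E-box was present in 3 of 13 and 0 of 14, against 6.86% of genes. These are matches of letters in 1 window per start and do not show binding.

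Gars, Sars, Lars and Iars were higher in Ogg1Tg muscle, and none of the 16 mitochondrial genes was called. The 4 genes, which charge glycine, serine, leucine and isoleucine, rose 2.68-fold, 2.01-fold, 1.95-fold and 1.89-fold. They were 4 of 36 synthetases called higher by limma at an adjusted p under 0.05, where 0.395% of the 23312 genes tested were called higher. No synthetase was called lower, where 0.15% of all genes were. At an unadjusted p under 0.05 the counts were 13 higher and 1 lower, where 4.24% and 6.78% of all genes were. By edgeR on recovered reads 6 of the 36 were called higher, where 0.651% of genes were, and none lower.

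**Figure D1:**
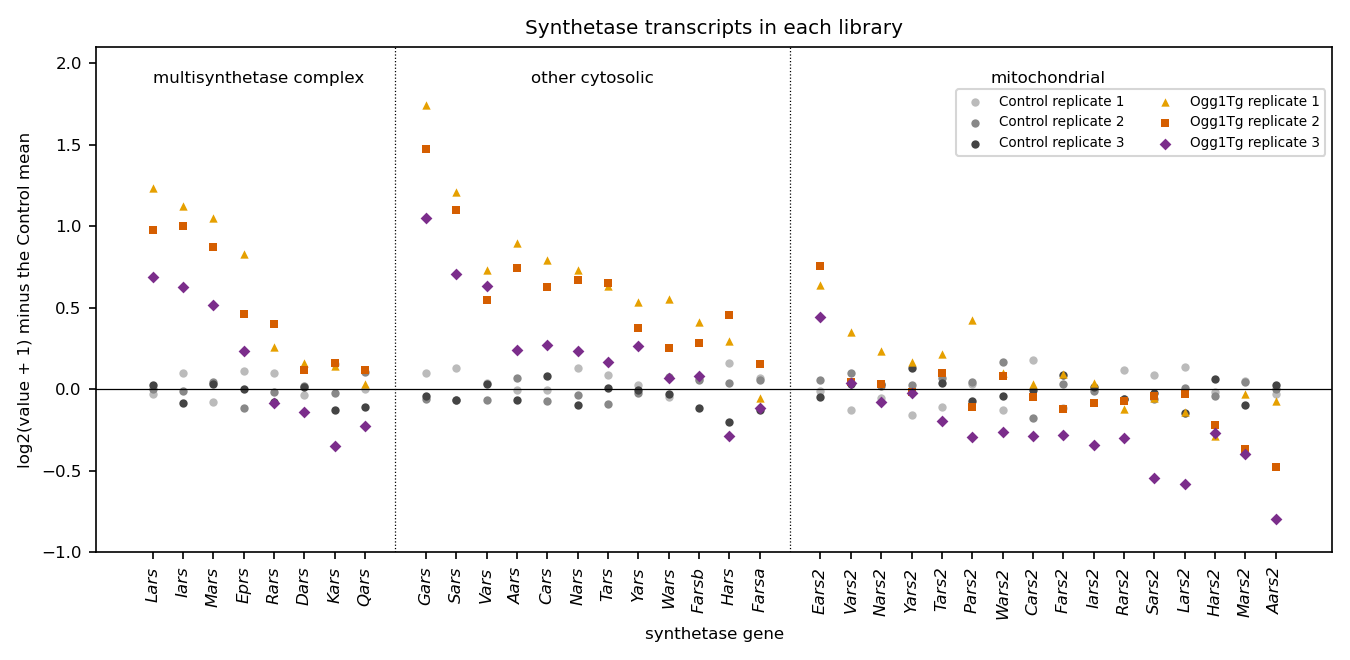
Each point is 1 library's log2(value + 1) minus the Control mean for 1 of the 36 synthetase genes, ordered within the multisynthetase complex, the other cytosolic enzymes and the mitochondrial enzymes. Ogg1Tg points rise to 1.74 for Gars, and most mitochondrial genes have Ogg1Tg points on both sides of 0 or below it on the deposited scale.

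Gars, glycyl-tRNA synthetase of both cytosol and mitochondria, measured 3149, 2827 and 2858 in Control replicates 1, 2 and 3. In Ogg1Tg replicates 1, 2 and 3 it measured 9855, 8170 and 6087. The lowest Ogg1Tg library was above the highest Control library. The log2 fold change was 1.42 ± 0.18 (SE) (limma adjusted p = 0.010, edgeR adjusted p = 0.0066). The gene lies on chromosome 6 from 55038007 to 55079500, plus strand, in GENCODE M21 on GRCm38.

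Sars, the cytosolic seryl-tRNA synthetase, which also charges the tRNA on which selenocysteine is made, measured 2597, 2269 and 2262 in Control and 5495, 5085 and 3876 in Ogg1Tg muscle. The groups did not overlap, and the log2 fold change was 1.01 ± 0.15 (limma adjusted p = 0.029). It lies on chromosome 3 from 108424865 to 108445209, minus strand. Its promoter window, shown above, held neither motif.

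Of the 8 synthetases of the multisynthetase complex, Lars and Iars rose and 6 did not pass. Lars, leucyl-tRNA synthetase and a known leucine sensor for mTORC1, measured 2168, 2220 and 2254 in Control and 5202, 4352 and 3567 in Ogg1Tg muscle (log2 fold change 0.97 ± 0.15, limma adjusted p = 0.030). Iars, isoleucyl-tRNA synthetase, measured 5740, 5321 and 5054 in Control and 11685, 10739 and 8291 in Ogg1Tg muscle. Its log2 fold change was 0.92 ± 0.16 (limma adjusted p = 0.046). It did not pass limma with a pseudocount of 0.1 (adjusted p = 0.055) or a robust trend (adjusted p = 0.051). The gene lies on chromosome 13 from 49682100 to 49734267, plus strand. For both genes every Ogg1Tg library was above every Control library.

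Mars, methionyl-tRNA synthetase of the same complex, measured 2137, 2326 and 2312 in Control and 4683, 4138 and 3226 in Ogg1Tg muscle. Its groups did not overlap, and it passed edgeR (adjusted p = 0.021) but not limma (log2 fold change 0.81 ± 0.15, adjusted p = 0.070). Mars shares 68 exon bases with Ddit3 on the opposite strand, 1.99% of its exon length, and the sources used here do not say if reads were counted by strand. Eprs, the joined glutamyl- and prolyl-tRNA synthetase, measured 15055, 12873 and 13967 in Control and 24799, 19201 and 16394 in Ogg1Tg muscle (log2 fold change 0.51 ± 0.18, limma adjusted p = 0.34). Its groups did not overlap either.

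On the deposited scale the other members of the complex lay near their Control level. Dars, Kars, Qars and Rars, for aspartate, lysine, glutamine and arginine, had log2 fold changes of 0.05, -0.01, -0.02 and 0.19, and their groups overlapped. Each was lowest, among the Ogg1Tg libraries, in replicate 3 on that scale. With scaling to reads in named genes all 20 cytosolic genes had a fold change above 0, and the median of all genes was 0.22. Rars reads per Rars2 read, which do not depend on scaling, were 2.69, 2.79 and 2.68 in Control. In Ogg1Tg muscle they were 3.54, 3.77 and 3.16, without overlap. Kars measured 3621, 3198 and 2980 in Control and 3600, 3643 and 2559 in Ogg1Tg muscle. Gars, the other enzyme that serves both compartments, was called, and the difference between these genes was not tested.

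Among the 12 cytosolic enzymes outside the complex, Gars and Sars rose and 10 did not pass limma. Vars, valyl-tRNA synthetase, measured 2278, 2118 and 2271 in Control and 3696, 3249 and 3446 in Ogg1Tg muscle. It passed edgeR (adjusted p = 0.022) and not limma (log2 fold change 0.64 ± 0.11, adjusted p = 0.057). On the deposited scale it was the 1 cytosolic synthetase whose lowest Ogg1Tg value was not in replicate 3. As a share of reads in named genes, replicate 2 was the lowest Ogg1Tg library for 17 of 20 cytosolic genes.

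Aars, alanyl-tRNA synthetase, measured 5320, 5587 and 5098 in Control and 9923, 8935 and 6289 in Ogg1Tg muscle (log2 fold change 0.63 ± 0.18, limma adjusted p = 0.23). It shares 1326 exon bases, 14.3% of its exon length, with Exosc6 on the same strand. Nars, asparaginyl-tRNA synthetase, measured 5096, 4539 and 4358 in Control and 7744, 7415 and 5475 in Ogg1Tg muscle (log2 fold change 0.55 ± 0.16, limma adjusted p = 0.25). Cars, cysteinyl-tRNA synthetase, measured 1727, 1646 and 1831 in Control and 3008, 2682 and 2090 in Ogg1Tg muscle (log2 fold change 0.56 ± 0.15, limma adjusted p = 0.21). In these 3 genes the groups did not overlap, and on the deposited scale Ogg1Tg replicate 3 lay closest to the Control libraries.

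Tars, Yars and Farsb, for threonine, tyrosine and the beta chain for phenylalanine, had log2 fold changes of 0.48, 0.39 and 0.26 without overlap. Wars, Hars and Farsa, for tryptophan, histidine and the alpha chain for phenylalanine, had 0.29, 0.16 and -0.00 with overlap. The beta chain Farsb measured 2005 ± 136 and 2407 ± 273, and the alpha chain Farsa 631 ± 48.1 and 630 ± 63.3. Wars, which interferon gamma is known to induce, measured 1378, 1501 and 1397 in Control and 2088, 1700 and 1497 in Ogg1Tg muscle.

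**Figure D2:**
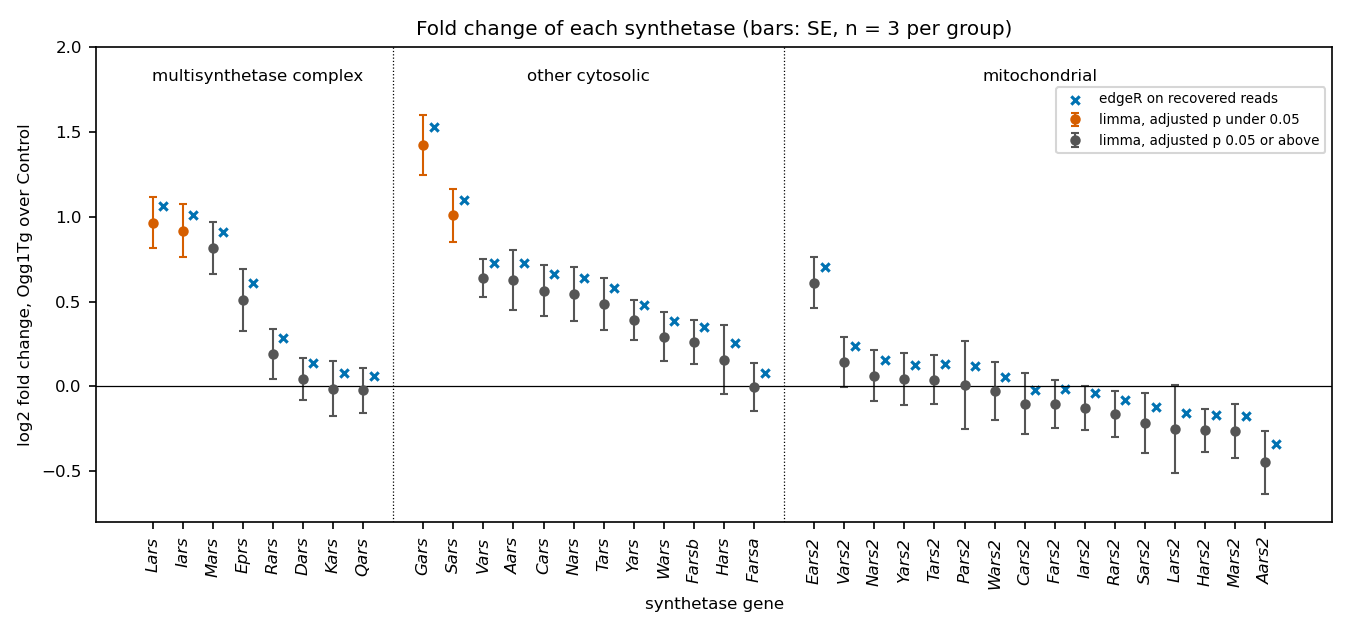
Points give the log2 fold change of Ogg1Tg over Control from limma with SE bars (n = 3 per group), and crosses give edgeR on recovered reads. Lars, Iars, Gars and Sars are the 4 called genes, and Gars is the highest at 1.42.

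For the 20 cytosolic genes the median log2 fold change was 0.50, against -0.02 over all genes tested. In 13 of the 20 every Ogg1Tg library was above every Control library, and in 0 of 20 below. Over all genes, 7.03% had groups without overlap on the higher side, and 7.72% of the genes with a mean of at least 100, which all 36 synthetases have. The median was 0.68, 0.51 and 0.23 from the Control mean in Ogg1Tg replicates 1, 2 and 3. In the Control libraries it was 0.07, -0.02 and -0.05. Members of the complex had a median of 0.35 and the free cytosolic enzymes one of 0.52.

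The genes with the largest mean change ranked near the top in each of the 3 Ogg1Tg libraries. This is partly built in, since the mean is taken over the same libraries. Gars had the largest difference from the Control mean of the 36 genes in each of them. Sars ranked 3, 2 and 2, Lars 2, 4 and 3, and Iars 4, 3 and 5 in replicates 1, 2 and 3. Mars ranked 5, 5 and 6. Some other cytosolic genes moved more, with Kars at 24, 18 and 32, Hars at 18, 13 and 27, and Vars at 10, 11 and 4. Ranks within a library do not depend on how the library was scaled.

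The size of the change in Ogg1Tg replicate 3 depended on scaling. On the deposited scale that library was the lowest Ogg1Tg library for 19 of 20 cytosolic and 15 of 16 mitochondrial genes. As a share of reads in named genes it was lowest for 1 of 20 and 0 of 16. The 20 cytosolic genes together took 0.0925%, 0.0925% and 0.0942% of those reads in Control replicates 1, 2 and 3. They took 0.180%, 0.146% and 0.174% in Ogg1Tg replicates 1, 2 and 3. On either scale all 3 Ogg1Tg libraries lay above the Control libraries.

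As a share of reads in named genes, the cytosolic genes took 0.174% in Ogg1Tg replicate 3 and 0.146% in replicate 2. Replicate 3, the library with high lymphocyte and adipocyte markers, was thus not the lowest by share. A fit without it was not run on that scale. On the deposited scale, where it was mostly the lowest, the cytosolic fold changes were larger without Ogg1Tg replicate 3. The cytosolic median was then 0.64, and Gars had a log2 fold change of 1.61 (limma adjusted p = 3.8e-05). In that fit 425 of 22815 genes were called in either direction, against 127 of 23312 with all libraries, and 13 synthetases were called higher: Eprs, Iars, Lars, Mars, Aars, Cars, Gars, Nars, Sars, Tars, Vars, Yars and the mitochondrial Ears2. When the low-value filter was taken on all 6 libraries, Gars alone was called. The calls of the full comparison also rested on each Control library. Without Control replicate 1, 2 or 3 no synthetase was called by limma, with Gars at a log2 fold change of 1.26 or more in each fit that left out 1 library. Without Ogg1Tg replicate 1 or 2, Gars alone was called.

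None of the 16 mitochondrial synthetases passed limma, and their log2 fold changes ran from -0.45 for Aars2 to 0.61 for Ears2, with a median of -0.10. In 1 of 16 every Ogg1Tg library was above every Control library, near the 7.03% of all genes. In 3 of 16 every Ogg1Tg library was below on the deposited scale, where 11.3% of all genes were. As shares of reads in named genes the groups of these 3, Aars2, Hars2 and Rars2, overlapped. By limma 0 were called, with 2 at an unadjusted p under 0.05, Ears2 and Aars2. By edgeR 0 were called and by DESeq2 1, Ears2, where DESeq2 called 2.01% of genes higher.

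Ears2, the mitochondrial glutamyl-tRNA synthetase, was the mitochondrial gene without overlap on the higher side. It measured 311, 325 and 303 in Control and 487, 528 and 426 in Ogg1Tg muscle (log2 fold change 0.61 ± 0.15, limma adjusted p = 0.18). It shares 89 exon bases with Ubfd1 on the opposite strand, 1.73% of its exon length. Aars2, mitochondrial alanyl-tRNA synthetase, was the mitochondrial gene with the lowest fold change. It measured 790, 804 and 821 in Control and 765, 578 and 464 in Ogg1Tg muscle (log2 fold change -0.45 ± 0.18, limma adjusted p = 0.42). On the deposited scale its groups did not overlap, with Ogg1Tg replicate 1 close to Control.

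Hars2 and Rars2 were the other genes without overlap on the lower side of the deposited scale, with log2 fold changes of -0.26 and -0.16. Hars2 measured 688 ± 25.7 and 574 ± 15.2, and shares 195 exon bases with Hars, which runs the opposite way from a neighbouring start. The remaining 12 mitochondrial genes overlapped between groups, with log2 fold changes from -0.26 for Mars2 to 0.14 for Vars2. The sign of the mitochondrial median depended on scaling. Scaling to reads in named genes, an alternative chosen after the data were seen, gave a mitochondrial median of 0.14 and moved the median of all genes from -0.02 to 0.22. Relative to all genes, the cytosolic median was 0.52 on the deposited scale and 0.53 on the other, and the mitochondrial median was -0.08 and -0.07. Without Ogg1Tg replicate 3 the mitochondrial median relative to all genes was 0.03 on the deposited scale.

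Reads of a cytosolic gene per read of its mitochondrial counterpart give a measure free of library scaling. The 17 such pairs include Eprs with Ears2 and with Pars2, and Farsa and Farsb each with Fars2, so they are not independent. In 14 of the 17 the ratio was higher in every Ogg1Tg library than in every Control library, and in 0 lower. No such share was computed over other gene pairs, so the count has no background beside it. The pairs also include the called genes Sars, Lars and Iars. With 3 libraries against 3 the two-sided exact permutation p of each of the 14 was 0.1, the smallest possible. It was 0.12 after Benjamini-Hochberg adjustment over the 17 pairs.

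For serine, Sars reads per Sars2 read were 5.54, 5.35 and 5.20 in Control and 12.9, 11.9 and 12.8 in Ogg1Tg muscle. The SD of the log2 ratio was 0.05 and 0.07, against a difference of 1.22. For isoleucine, Iars per Iars2 was 1.59, 1.49 and 1.39 in Control and 3.16, 3.15 and 2.92 in Ogg1Tg muscle. Iars2 shares 2034 exon bases, 22.9% of its exon length, with Rab3gap2 on the opposite strand. For methionine, Mars per Mars2 was 4.27, 4.66 and 5.12 in Control and 9.90, 11.1 and 8.79 in Ogg1Tg muscle. For alanine, Aars per Aars2 was 6.73, 6.95 and 6.21 in Control and 13.0, 15.5 and 13.6 in Ogg1Tg muscle. In the serine and alanine pairs Ogg1Tg replicate 3 was not the lowest Ogg1Tg library.

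For leucine, Lars per Lars2 was 0.0181, 0.0202 and 0.0229 in Control and 0.0526, 0.0407 and 0.0490 in Ogg1Tg muscle. Its log2 difference was 1.22, with SDs of 0.17 and 0.19. Lars2 reads were far more numerous than those of the other mitochondrial synthetases, and what they are was not tested. The Lars/Lars2 ratio carries that limit. Among the remaining pairs, the log2 difference was 0.67 for Cars/Cars2, 0.49 for Vars/Vars2, 0.48 for Nars/Nars2 and 0.32 for Wars/Wars2, all without overlap. Groups overlapped for Hars/Hars2, Farsa/Fars2 and Eprs/Ears2. Eprs/Ears2 had a log2 difference of -0.10 (two-sided exact permutation p = 0.7, n = 3 per group), and Eprs and Ears2 each had higher values in every Ogg1Tg library. Eprs/Pars2 was 132, 112 and 132 in Control and 165, 186 and 181 in Ogg1Tg muscle.

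**Figure D3:**
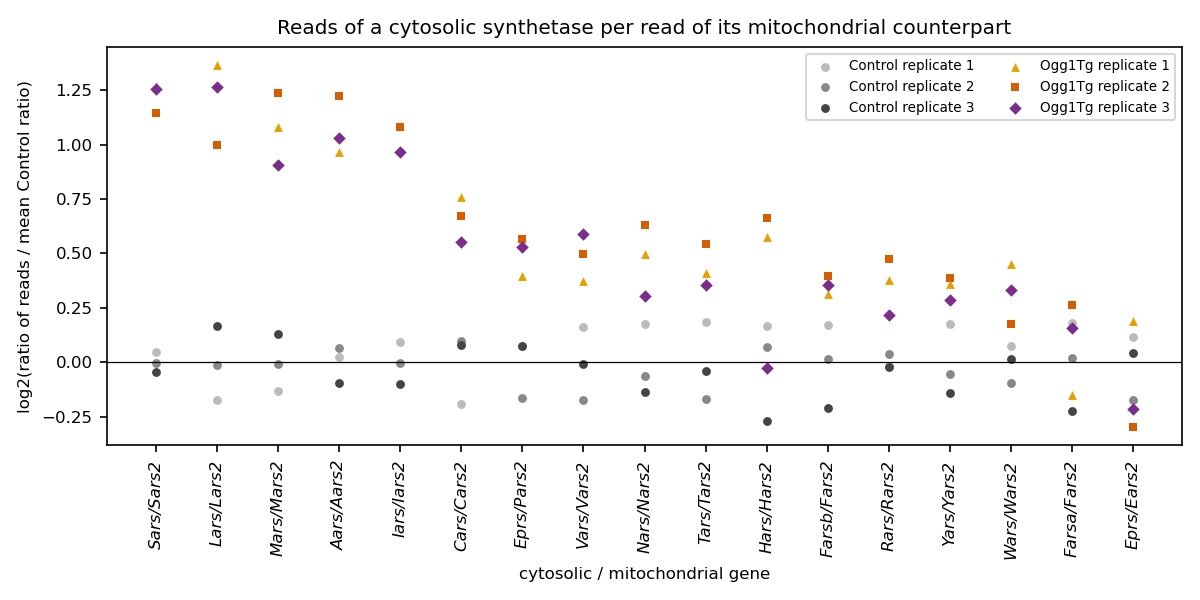
Each point is 1 library's ratio of cytosolic to mitochondrial reads for 1 pair, as log2 over the mean Control ratio. In 14 of 17 pairs all Ogg1Tg points lie above all Control points, and the Sars/Sars2 and Lars/Lars2 pairs each have a difference of 1.22. What the Lars2 reads are was not tested.

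The synthetases differed widely in level. Per kb of merged exon, Nars, Iars and Gars led the cytosolic genes in Control muscle, at 1071 ± 88.4, 1019 ± 65.6 and 944 ± 57.0. The lowest cytosolic gene was Farsa at 139 ± 10.6. Merged exon length joins the exons of all annotated transcripts of a gene, so this order depends on the annotation. Eprs, with 18.1 kb, had the highest cytosolic value before division by length, 13965 in Control, and ranked 5 of the 36 genes per kb. Of the mitochondrial genes other than Lars2, Iars2 was highest at 406 ± 3.22 and Pars2 lowest. In Ogg1Tg muscle Gars reached 2577 per kb, above Iars at 1942 and Nars at 1579. Of 35 pairs of neighbours in the Control order, 23 overlapped between libraries, Nars with Iars and Iars with Gars among them.

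Lars2 stood apart from the other 35 genes. It measured 119790, 109800 and 98524 in Control and 98934, 106890 and 72840 in Ogg1Tg muscle, or 9863 ± 959 per kb in Control. It took 88.7% to 91.6% of the reads of the 16 mitochondrial synthetases in each library, so a sum over that group is largely Lars2. Its share of reads in named genes was 0.149% to 0.166% in all 6 libraries. What these reads are was not tested. The median of the mitochondrial genes without Lars2 was also -0.10.

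**Figure D4:**
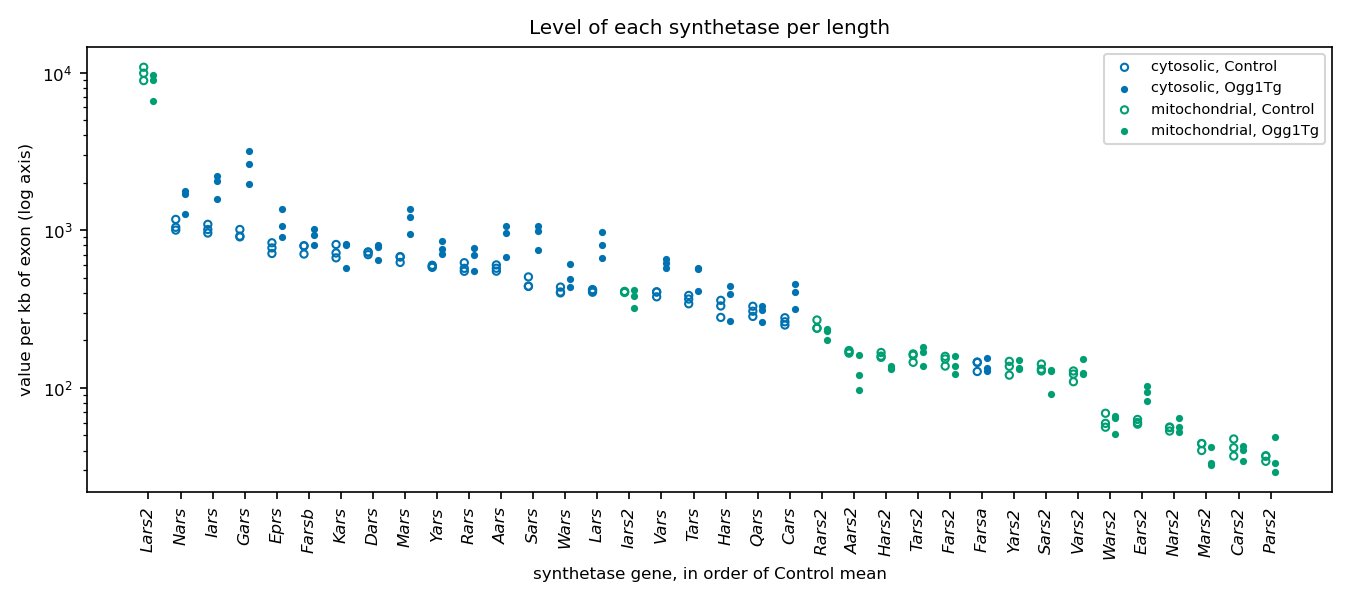
Values per kb of merged exon are plotted on a log axis for each library, in the order of the Control mean, with open circles for Control and filled circles for Ogg1Tg. Lars2 lies near 9863 in Control, cytosolic genes lie mostly above mitochondrial ones, and Gars moves from 944 to 2577.

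The catalytic class of the enzyme, which follows from its fold and sets which hydroxyl of the tRNA end is charged first, did not separate the called genes. Iars and Lars were 2 of 18 class I genes, and Gars and Sars 2 of 17 class II genes, where 0.395% of all genes tested were called higher. The medians were 0.17 for class I and 0.05 for class II. Eprs, with a domain of each class, was counted apart.

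Xpot, the exportin that carries tRNA from nucleus to cytosol, rose with the called synthetases. It was the 1 gene called higher among 29 other genes of tRNA charging, with 0 lower. Over all genes tested, 0.395% were called higher and 0.15% lower. Xpot measured 2242, 2132 and 2351 in Control and 5976, 4890 and 4162 in Ogg1Tg muscle (log2 fold change 1.15 ± 0.15, limma adjusted p = 0.012), and its groups did not overlap. The median of the 29 genes was -0.02.

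The scaffold proteins of the multisynthetase complex did not pass. Aimp1 and Aimp2 measured 1941 ± 168 and 1108 ± 145 in Control, and 1944 ± 455 and 816 ± 347 in Ogg1Tg muscle. Eef1e1, the smallest scaffold protein, had higher values in every Ogg1Tg library, at 236 ± 39.7 in Control and 316 ± 22.3 in Ogg1Tg muscle (log2 fold change 0.43 ± 0.18, limma adjusted p = 0.43). No gene for editing or removal of mischarged amino acids passed, with log2 fold changes of -0.20 to 0.02 over 5 genes, of which Aarsd1 had -0.04 and Ankrd16 0.00. The 4 genes of the mitochondrial amidotransferase, which makes Gln-tRNA there, and of methionyl-tRNA formylation had -0.26 to -0.02, with Gatc at -0.22 and Gatb at -0.10. The 4 genes of selenocysteine charging and use had -0.06 to 0.30, with Pstk at -0.06 and Secisbp2 at 0.01.

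Of the factors that deliver charged tRNA to the ribosome, none of 4 passed. Eef1a1, the elongation factor of most tissues, measured 10559, 9600 and 11124 in Control and 24180, 17823 and 38133 in Ogg1Tg muscle (log2 fold change 1.29 ± 0.25, limma adjusted p = 0.085). Its highest value was in Ogg1Tg replicate 3. Eef1a2, the form of adult muscle, measured 58267 ± 2984 in Control and 59413 ± 13564 in Ogg1Tg muscle. On the deposited scale the mitochondrial factors Tufm and Tsfm had lower values in every Ogg1Tg library than in every Control library. Their log2 fold changes were -0.31 ± 0.16 and -0.56 ± 0.21 (limma adjusted p = 0.52 and 0.38). As shares of reads in named genes the groups overlapped for both. Tarsl2, a second cytosolic threonyl-tRNA synthetase, was lower in every Ogg1Tg library, at 3924, 3368 and 3401 in Control and 2666, 2909 and 1615 in Ogg1Tg muscle (log2 fold change -0.61 ± 0.21, limma adjusted p = 0.33), while Tars had the opposite sign.

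The reference genes of the amino acid response had unequal changes. Asns rose with a log2 fold change of 4.85 ± 0.22 (limma adjusted p = 2.7e-05), far above that of Gars. Atf4 had 0.69 ± 0.16, close to Mars and Vars. It passed edgeR (adjusted p = 0.049) and not limma (adjusted p = 0.14), and every Ogg1Tg library was above every Control library.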

How the data were processed

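RNA was extracted from gastrocnemius on RNeasy columns and sequenced from NuGen Ovation libraries, per the labels' protocols. Trimmomatic, SAMtools and HTSeq appear in the submitters' processing notes, as does mm10, and no version is stated. Aligner, annotation and strand setting were not given in the sources used here. Although called FPKM, the deposited numbers are a signal: gene reads divided by 1 factor per library. In each library 100% of values lay within 0.01 read of a whole multiple of the value of 1 read, which ranged from 1.01 to 1.40. In Ogg1Tg replicate 3 that value is so close to 1 that the check says less. Of 37315 entries, 1824 had no gene name (2.38% to 3.54% of reads) and were not used.

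Genes with a mean of at least 1 were tested on log2(value + 1), a scale that shrinks the fold change of low genes, with limma 3.58.1 in R 4.3.3 (Ogg1Tg minus Control, variance trend, two-sided). Benjamini-Hochberg adjustment ran over all 23312 genes, and an adjusted p under 0.05 was a call. edgeR 4.0.16 (TMM, quasi-likelihood) and DESeq2 1.42.0 were run on recovered reads. The labels do not say more of the replicates than their numbers, so p-values measure the spread between these libraries. On simulated reads of 17514 genes, with 200 changed, limma called 64% of 2-fold and 85% of 4-fold changes, with 17 false calls. Only genes above a minimum mean of reads were changed, and reads were drawn independently in each library. An outlying library like Ogg1Tg replicate 3 was not modelled, so these shares do not describe the calls made here. No library was taken as a duplicate, since pairs of libraries had a chi-square of 13.9 or more per gene.

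Members and gene lists were chosen with earlier results of these data known, so no p is given for a list. Values in every library are given for members called by limma or edgeR, for members with an absolute log2 fold change of at least 0.5 and no overlap, and for their partners, partly as ratios. For the partners of Cars, Nars and Vars only the log2 difference of the ratio is given. Kars, Wars, Aars2, Lars2 and the Rars/Rars2 ratio were given in full after their values were seen, and so were Hars2 and the Fars chains as means. From each list of other genes those called are named, or else the 2 with the highest mean. Eef1e1, Tufm and Tsfm were added after their values were seen. Alternatives were the pseudocount, filter, scaling, variance trend, replicate block, test and each library left out. Coordinates and exon lengths come from GENCODE M21 (GRCm38). No promoter window was found for Cars, Hars, Lars, Nars, Rars, Vars, Wars, Hars2 and Pars2.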

Additional observations from a re-analysis of the deposited data

How the results depend on the processing

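None of the 14 genes followed through the alternatives (Gars, Sars, Lars, Iars, Mars, Vars, Eprs, Aars, Cars, Nars, Ears2, Xpot, Asns and Atf4) changed direction in any, and no synthetase was called lower in any. The number of synthetases called higher, 4, was 0 with no filter and with no variance trend, 10 with quantile normalization, 13 with DESeq2, and 9 with scaling to reads in named genes, which was chosen after the data were seen. The number of genes called, 127, was 45 with no filter, 46 with no variance trend, 177 with quantile normalization, 619 with DESeq2 and 155 with scaling to reads in named genes. With a pseudocount of 0.1 or a robust trend 3 synthetases were called, without Iars, among 112 and 135 genes. Scaling to reads in named genes gave a cytosolic median of 0.74 and a mitochondrial median of 0.14. With 1 library left out, 0 to 13 synthetases and 35 to 425 genes were called, and 28 genes without Ogg1Tg replicate 3 when the filter used all 6 libraries. Replicate numbers gave no sign of pairing: same-numbered libraries had correlations of deviations of -0.05 to 0.03, and libraries of other numbers -0.07 to 0.07. With 3 libraries per group these correlations cannot exclude pairing. With the replicate block 2 synthetases, Gars and Sars, were called. The cause of these shifts was not tested. The lowest of the 36, Pars2, had 245 reads over the Control libraries and the widest counting error.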
